A study of Mus musculus with 3 samples.

Results

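The Rab GTPases are the largest branch of the small GTPases that direct membrane traffic. The genes described here are all genes of the deposited count tables whose symbol is Rab followed by a number, with or without a further letter and digit. They numbered 58 of the 32531 gene symbols listed, and the rule reads the symbol alone. Rab-like genes and genes named for Rab partners were kept apart and counted as separate lists.

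A Rab protein is a switch between a GTP-bound active form and a GDP-bound inactive form. Exchange factors turn it on at a given membrane, GTPase-activating proteins turn it off, and effectors that bind the active form tether, move or fuse the vesicle. Rab proteins are anchored by lipid groups that Rab geranylgeranyl transferase, helped by a Rab escort protein, adds to cysteines at or near their end, and GDP dissociation inhibitor takes the inactive form off the membrane again. In neurons they are known for the traffic of synaptic vesicles, for endosomes in axons and dendrites and for the long path from the Golgi to distant membranes.

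The RNA came from the deep nuclei of the cerebellum, which carry its output to the rest of the brain, of adult Htr6-TRAP NIDA113 mice on the C57BL/6J strain. The mice carry the transgene Htr6-EGFP/Rpl10a, an EGFP-tagged ribosomal protein, in a line named for the serotonin receptor gene Htr6, and tagged polysomes were pulled down with anti-EGFP antibodies (translating ribosome affinity purification, TRAP). All 3 libraries are immunopurified RNA of this 1 group, with no second genotype, treatment or time, and unpurified tissue RNA was not analysed here. The labels do not say which cells carry the tag in this line or whether the libraries came from separate mice or pools, so the spread between libraries may be partly technical.

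The libraries held 7695397, 8842058 and 7622010 counts on genes in replicates 1, 2 and 3. Of the cell type markers examined, those of neurons summed to between 15272 and 22294 CPM (gene counts scaled to a common library size), those of glutamatergic deep nuclear neurons to between 418 and 656 CPM, and those of GABA and glycine neurons to between 397 and 890 CPM. Markers of Purkinje cells (5639 to 7577 CPM), granule cells (2732 to 3026 CPM), oligodendrocytes (2883 to 3644 CPM) and astrocytes (2426 to 2782 CPM) were also present, with every gene of these 4 lists and of the neuronal lists counted in every library. The Purkinje sum came largely from Itpr1 (mean 3669 CPM), with Pcp2 at a mean of 27.6 CPM, so the sums do not rank cell types. Microglial markers summed to between 19.8 and 35.9 CPM with C1qa and Trem2 at 0, and vessel markers to between 44.6 and 92.7 CPM with Cldn5 at 0. A Rab level is thus an abundance in the mixed purified RNA, and fewer cells of a type cannot be told apart from less RNA per cell.

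The ends of the coding sequences are shown first, since they carry the cysteine codons of the lipid anchor and the tail before it, which is known to vary between Rab proteins. Each line gives the last 12 codons and the stop codon, 5′ to 3′ on the coding strand, from the GENCODE M21 transcripts of mm10, with cysteine codons among the last 5 codons in capitals. Shown are the leading genes of the family, Rab8b as an example with a single cysteine codon, and genes of the Rab3 and Rab5 groups.
Rab2a: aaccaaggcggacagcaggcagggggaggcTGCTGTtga
Rab7: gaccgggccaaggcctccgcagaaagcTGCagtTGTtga
Rab6b: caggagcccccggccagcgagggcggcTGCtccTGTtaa
Rab6a: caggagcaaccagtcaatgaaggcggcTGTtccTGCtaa
Rab11b: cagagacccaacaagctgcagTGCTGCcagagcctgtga
Rab3a: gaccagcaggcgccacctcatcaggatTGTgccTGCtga
Rab3c: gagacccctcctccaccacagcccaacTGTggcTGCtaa
Rab3d: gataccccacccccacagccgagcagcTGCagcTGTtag
Rab5a: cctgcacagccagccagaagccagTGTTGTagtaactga
Rab5b: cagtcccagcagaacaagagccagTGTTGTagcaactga
Rab5c: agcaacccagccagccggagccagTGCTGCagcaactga
Rab8b: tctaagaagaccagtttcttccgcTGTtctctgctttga

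Counted from the last codon, 20 of the 58 genes had cysteine codons at the third place and at the last, as in Rab3a, Rab6b and Rab7, and these genes together took 53.8% ± 3.77 (SD, n = 3 libraries) of the summed Rab level per length. Another 14 genes, Rab2a among them, ended in a pair of cysteine codons and took 34.7% ± 3.99. The 6 genes with the pair at the fifth and the fourth place, such as Rab11b, took 7.39% ± 0.908, and the 6 with it at the fourth and the third place, which include the Rab5 genes, took 2.73% ± 1.24. A single cysteine codon at the fourth place was found in 9 genes, Rab8b among them, with 1.41% ± 0.767. The remaining 3 genes (Rab20, Rab34 and Rab44), with the pair at the third and the second place, took 0.0289% ± 0.05.

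These genes lie on 18 chromosomes, 4 of them on X, and their exons cover 761 to 13589 bases (median 3518.5). Since a long gene takes more reads than a short one, levels are compared between genes per length, as RPKM (CPM per kilobase of all annotated exons of a gene), and a single gene is compared between libraries in CPM or RPKM alike. Genes of the same number shared only short identical runs. In the longest coding transcripts, the longest run shared by any such pair was 38 bases, between Rab1 and Rab1b. It was shorter than the 50-base windows used to search for shared sequence. Whether every read was assigned to the right gene also depends on read length and allowed mismatches, which were not examined. Shown for the pairs whose levels are compared below are the longest run of all and those of Rab3a with Rab3c, Rab6a with Rab6b and Rab5a with Rab5b, all inside the coding sequence of both genes.
Rab1 and Rab1b: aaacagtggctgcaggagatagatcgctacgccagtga
Rab3a and Rab3c: tgtgacatggaagatgagcg
Rab6a and Rab6b: aaatggattgatga
Rab5a and Rab5b: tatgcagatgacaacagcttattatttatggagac
Longer identical stretches were found with other annotated genes. While 43 of the 58 genes held no 50-base window found in a transcript of another annotated gene away from their locus, 5 held such windows over more than 5% of their transcript, namely Rab7 (14.5%, mostly Rab7-ps1), Rab5b (13.0%, Gm13991), Rab11b (9.77%, Rab11b-ps2), Rab9 (7.87%, Rab9b-ps1) and Rab8b (5.66%, Gm20689). Reads from those windows may have been left uncounted, so these levels are uncertain.

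Most of the family was present. At least 10 counts in every library were found for 40 of the 58 genes (69.0%), against 27.6% of all 32531 genes listed. A further 12 had fewer counts in some library, 8 of them none in 1 or 2 libraries, and 6 had no count in any library: Rab17, Rab19, Rab20, Rab25, Rab42 and Rab44. With 3 counts as the limit for a gene not seen, the levels that could have been missed are 0.397, 0.34 and 0.385 CPM in replicates 1, 2 and 3, for counting error alone. Among those 6, Rab17 and Rab25 are known for epithelial cells and Rab44 for cells of the blood lineage. A mean of at least 10 RPKM was reached by 22 Rab genes, against 14.9% of the 23848 genes with a known length. Over all 58 genes the median of the mean log2(RPKM + 0.1) was 2.06, and over all genes with a length it was -1.86.

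Together the Rab genes took 0.805%, 0.678% and 0.652% of all gene counts in replicates 1, 2 and 3, a mean of 0.712% ± 0.0819 (SD, n = 3). Replicate 1 was the highest, and its summed neuronal markers were also the highest (22294 CPM, against 20378 and 15272 CPM). That sum was mostly Snap25 (mean 14585 CPM), which, like Nefm, was highest in replicate 1. The other neuronal markers had another order. Map2 (40.4, 46.8 and 44.9 RPKM) and Rbfox3 (32.1, 45.9 and 37.2 RPKM) were lowest in replicate 1. Syt1 was highest in replicate 3 (52.8, 29.2 and 54.2 RPKM). The part of these markers in the Rab share was not tested. A few genes made up most of the sum: the 5 with the highest counts held 69.9%, 66.0% and 64.9% of all Rab counts. Of the 52 genes with a count, 16 were highest in replicate 1, 19 in replicate 2 and 17 in replicate 3, so no library was high across the family.

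**Figure D1:**
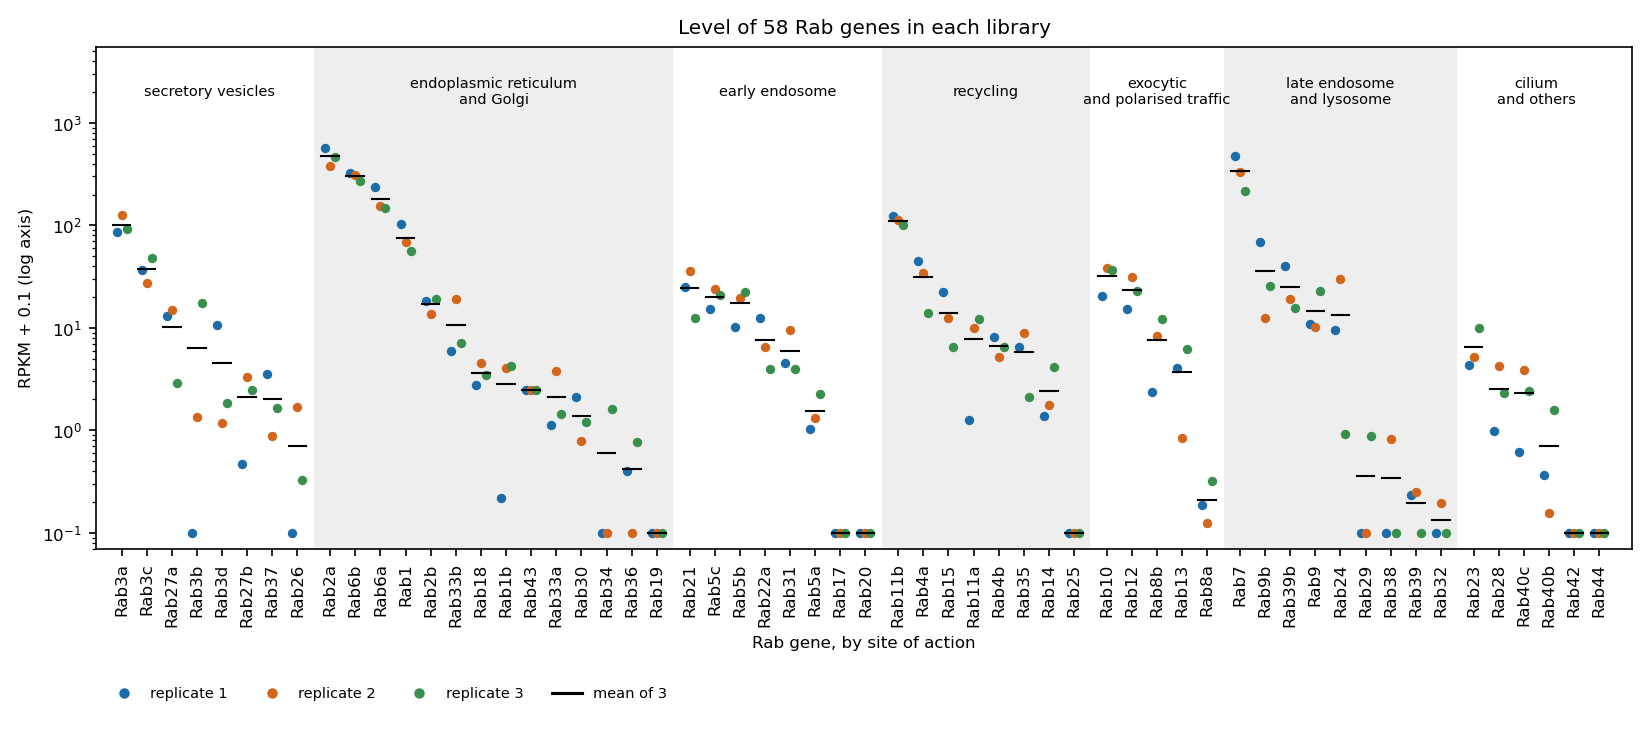
Level of each of the 58 Rab genes (RPKM + 0.1, log axis) in the 3 libraries, 1 point per library and a bar at their mean, with genes grouped by the compartment their proteins are known for. Points at the bottom are genes with no count, and Rab2a, Rab7 and Rab6b stand highest.

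Genes of the endoplasmic reticulum and Golgi led the family. These 14 genes took 53.7% ± 3.25 (SD, n = 3) of the summed Rab RPKM, and 9 of them passed the minimum of 10 counts throughout. Rab2a, which acts between the endoplasmic reticulum and the Golgi, lies on chromosome 4 (8535644 to 8607778 of mm10, plus strand) and has 8 exons. It had 567, 377 and 470 RPKM in replicates 1, 2 and 3, a mean of 471 ± 95.0. Per length of all annotated exons, Rab2a was the highest Rab gene in each library, at rank 19, 31 and 21 among all genes with a length. With the length of the coding transcript instead, Rab7 led in replicates 1 and 2 (575 and 399 RPKM, against 567 and 377 for Rab2a), and by CPM Rab6b led in all 3, so which gene stood first depended on the length used.

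Rab6b and Rab6a both act in traffic at the Golgi, and Rab6b is known as the form of the brain. Rab6b (chromosome 9, 103111787 to 103185276, plus strand, 8 exons) had 328, 310 and 273 RPKM (304 ± 27.8), and with 12449, 13754 and 10711 counts it was the most counted Rab gene. Rab6a had 239, 154 and 147 RPKM (180 ± 50.7). In each library Rab6b was above Rab6a. Exons of Rab6a overlap those of Mrpl48 on the other strand over 19.0% of their length, and the strand setting of the counting is not given in the sources used here.

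Rab1, the GENCODE gene Rab1a, serves the step from the endoplasmic reticulum to the Golgi and had 102, 69.5 and 55.5 RPKM (75.8 ± 24.1). Its paralog Rab1b was much lower, with 2, 79 and 74 counts. Rab2b followed with 18.1, 13.7 and 19.0 RPKM (16.9 ± 2.84), and Rab33b, which works at the Golgi and in autophagosome formation, with 5.80, 18.9 and 7.0 RPKM (10.6 ± 7.26). Rab18, known for the endoplasmic reticulum and lipid droplets, had a mean of 3.49 ± 0.911 RPKM, Rab43 2.38 ± 0.0136, Rab33a 2.03 ± 1.48 and Rab30 1.28 ± 0.689. The counts of Rab34 and Rab36 were at most 32 in a library and 0 in at least 1 of them.

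Late endosomes and lysosomes came next with 9 genes and 21.1% ± 4.73 of the Rab RPKM, of which Rab7 held the greater part. Rab7 (chromosome 6, 87999106 to 88045270, minus strand, 6 exons), the Rab of late endosomes, lysosomes and retrograde axonal carriers, had 476, 330 and 218 RPKM (341 ± 129) and ranked 25, 34 and 60. The share of the compartment was 25.8%, 21.1% and 16.3% in replicates 1, 2 and 3. Both the share and Rab7 were highest in replicate 1 and lowest in replicate 3. The summed neuronal markers given above had that order too, through Snap25 and Nefm, while Map2, Rbfox3 and Syt1 did not. A relation to these markers was not tested. Rab7-ps1 shares sequence with Rab7, as stated above.

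Rab9b, whose paralog Rab9 returns receptors from endosomes to the Golgi, had 68.7, 12.5 and 25.5 RPKM (35.5 ± 29.4), highest in replicate 1 by more than the other libraries differed. Rab9 itself had a mean of 14.5 ± 7.18 RPKM, highest in replicate 3. Rab39b, a neuronal Rab of X-linked intellectual disability and parkinsonism in people, had 39.9, 18.9 and 15.5 RPKM (24.8 ± 13.2). Its relative Rab39 had 3, 4 and 0 counts. Rab32 and Rab38, best known for pigment granules, had at most 10 counts in any library, and Rab29, which recruits the kinase LRRK2 to membranes, had 0, 0 and 9 counts.

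Rab24, linked to autophagy, had 143, 532 and 13 counts, the widest range of any Rab gene with at least 10 counts in every library. Its exons overlap those of Prelid1 on the other strand over 62.4% of their length, so reads of the 2 genes cannot be told apart without strand, while Prelid1 itself had 205, 181 and 146 counts.

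Rab genes of secretory vesicles were 8 in number and took 8.38% ± 1.70 of the Rab RPKM. Rab3 proteins sit on synaptic vesicles and act before fusion, and Rab3a is the main form of most brain synapses. Rab3a (chromosome 8, 70754679 to 70758677, plus strand, 4 exons) had 86.7, 125 and 91.4 RPKM (101 ± 21.0). Rab3c (chromosome 13, 110054187 to 110280996, minus strand, 5 exons) had 36.7, 27.2 and 48.3 RPKM (37.4 ± 10.6). Per length the genes did not overlap, with every Rab3a value above every Rab3c value.

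In counts the order was the opposite. Rab3c took 3343, 2883 and 4539 counts and Rab3a 1458, 2456 and 1586, with exons of 12049 bases annotated for Rab3c and 2226 for Rab3a. Rab3b and Rab3d differed most between libraries: Rab3b had 0, 39 and 476 counts, and Rab3d had 335, 40 and 57. Rab3b was thus high in replicate 3 alone and Rab3d in replicate 1 alone. Rab3b was the only Rab gene with 0 counts in 1 library and at least 50 in another, a pattern found for 7.01% of the 16071 genes with any count.

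Rab27a and Rab27b, which serve dense granules and other regulated secretion, had means of 10.2 ± 6.44 and 2.0 ± 1.47 RPKM. Rab27a had 380, 504 and 85 counts and Rab27b 30, 305 and 198, so the lowest library of one was not the lowest of the other. Rab37, a secretory granule Rab, had 139, 37 and 65 counts, and Rab26, of synaptic vesicles and autophagy, had 0, 40 and 5.

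Recycling endosomes were represented by 8 genes with 8.92% ± 0.688 of the Rab RPKM. Rab11b (chromosome 17, 33742484 to 33760530, minus strand, 5 exons), the brain-enriched member of the Rab11 group of slow recycling, had 122, 112 and 99.7 RPKM (111 ± 11.2). Rab11a had 26, 262 and 282 counts, which gave 1.15, 9.94 and 12.1 RPKM, far lower in replicate 1 than in the other libraries. Rab4a, of fast recycling, had 45.0, 34.4 and 13.9 RPKM (31.1 ± 15.8), and Rab4b 8.06, 5.07 and 6.38 (6.51 ± 1.5). Rab15 had a mean of 13.8 ± 8.06, Rab35 of 5.73 ± 3.45 and Rab14 of 2.33 ± 1.48 RPKM. Rab14 is the longest gene of the family by exons, and by its coding transcript alone its level was 10.3 ± 6.53 RPKM.

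Early endosome genes, 8 with 3.89% ± 1.09, were of moderate level. Rab21, which carries integrins, had 24.7, 35.8 and 12.3 RPKM (24.2 ± 11.8). Rab5 is the master Rab of early endosomes: Rab5c had 15.3, 23.8 and 20.9 RPKM (20 ± 4.34), Rab5b 9.99, 19.5 and 22.3 (17.3 ± 6.47) and Rab5a 0.930, 1.23 and 2.17 (1.44 ± 0.646). Every Rab5a value was below every value of the other two. Rab22a (7.52 ± 4.32 RPKM) and its relative Rab31 (5.89 ± 3.08 RPKM) overlapped.

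Of the 5 genes of exocytic and polarised traffic, with 3.46% ± 1.46, Rab10 was highest at 20.6, 38.3 and 36.6 RPKM (31.8 ± 9.79), followed by Rab12 at 15.1, 31.2 and 23.0 (23.1 ± 8.09). Both are known substrates of LRRK2. Both were lowest in replicate 1. Of the 52 Rab genes with a count, 23 were lowest in replicate 1, 13 in replicate 2 and 16 in replicate 3. Ties at 0 were given to the first of the tied libraries, which raises the figure for replicate 1. Rab8b had 81, 342 and 446 counts, Rab13 69, 15 and 109, and Rab8a, a Rab of cilia and exocytosis, only 3, 1 and 8. The 6 genes of cilia and other roles took 0.618% ± 0.338, led by Rab23, a negative regulator of Hedgehog signalling, with 6.45 ± 3.05 RPKM, then Rab28 (2.41 ± 1.62), Rab40c (2.19 ± 1.62) and Rab40b (0.597 ± 0.763).

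In the order of mean RPKM, 7 Rab genes were among the 1000 highest of all genes in every library, where 2.67% of the 23848 genes were: Rab2a, Rab7, Rab6b, Rab6a, Rab11b, Rab3a and Rab1. Rab3c lay just outside, at rank 948, 1358 and 563. Rab2a, Rab7 and Rab6b were among the 100 highest in every library, where 0.319% of genes were. The order was made from the means of these same 3 libraries, so the direction of a step was largely set by the sorting, and the steps are only described. Most steps of the order were within the spread: of 51 pairs of neighbours with a count, 4 differed in the same direction in all 3 libraries and by more than 1 SD of the difference. These were Rab2a over Rab7 (log2 difference 0.52 ± 0.51), Rab6b over Rab6a (0.78 ± 0.29), Rab6a over Rab11b (0.66 ± 0.27) and Rab1 over Rab3c (1.01 ± 0.70). The first of these did not hold with coding transcript length (-0.02, -0.08 and 0.83 in the 3 libraries) or with windows found in no other gene (-0.18, -0.24 and 0.67), while the other 3 kept one sign under both. By CPM, only Rab6b over Rab6a kept its sign in every library, and Rab3c was above Rab1 in all 3. Rab7 and Rab6b (0.10 ± 0.43), and Rab11b and Rab3a (0.15 ± 0.33), changed places between libraries. Across the 58 genes, Spearman's correlation of the mean level with exon length was 0.196 in RPKM and 0.370 in CPM, a description over genes that share the same libraries.

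Within a Rab number, 1 gene usually prevailed. The 13 numbers with more than 1 gene held 29 genes, and in 12 of them the same gene had the highest RPKM in all 3 libraries. Summed over their genes, Rab2 (488 ± 97.2 RPKM) and Rab6 (484 ± 74.6) were highest, followed by Rab3 (149 ± 13.3), Rab11 (119 ± 6.24) and Rab1 (78.6 ± 21.9). The summed Rab3 level varied less between libraries than the level of any of its 4 genes relative to their means.

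The leading gene held over 90% of its number for Rab39b (99.6% ± 0.403), Rab8b (98.1% ± 1.66), Rab2a (96.5% ± 0.395), Rab1 (95.8% ± 3.60) and Rab11b (93.4% ± 5.11). Rab33b held 84.2% ± 0.698 and Rab4a 80.1% ± 10.2. The SD of the share was under 1 percentage point for Rab2a, Rab33b and Rab39b. Rab33a and Rab33b were both higher in replicate 2 than in the other libraries. With only 9, 38 and 12 counts of Rab33a, the small SD of the Rab33b share is uncertain. Rab27a held 97.2%, 82.0% and 54.2% of its number, and Rab9b 86.4%, 55.6% and 52.7%, so replicate 1 was the most one-sided for both.

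Rab3a held 64.7%, 80.9% and 57.6% of the Rab3 level, a mean of 67.7% ± 12, and Rab3c 25.1% ± 6.74. Rab3b and Rab3d held 3.91% ± 6.08 and 3.23% ± 4.04, each mostly from 1 library. By CPM, with no length, Rab3c held 62.2% ± 7.90 and Rab3a 32.5% ± 11.3, so the leading Rab3 gene depends on the scaling for length. Rab6b held 63.2% ± 4.71 and Rab6a the rest. The exception to a single leader was Rab5, where Rab5c led in replicates 1 and 2 and Rab5b in replicate 3. Rab5c held 52.6% ± 6.15, Rab5b 43.7% ± 5.50 and Rab5a 3.69% ± 1.01, and by CPM Rab5b led in every library with a mean of 57.5%. With the length of the coding transcript in place of all exons, 10 numbers kept a single leader, since Rab9 and Rab27 then joined Rab5 as exceptions. With 50-base windows found in no other annotated gene, 10 numbers kept one too. In that setting Rab9 was above Rab9b, and Rab5b above Rab5c, in replicates 2 and 3.

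**Figure D2:**
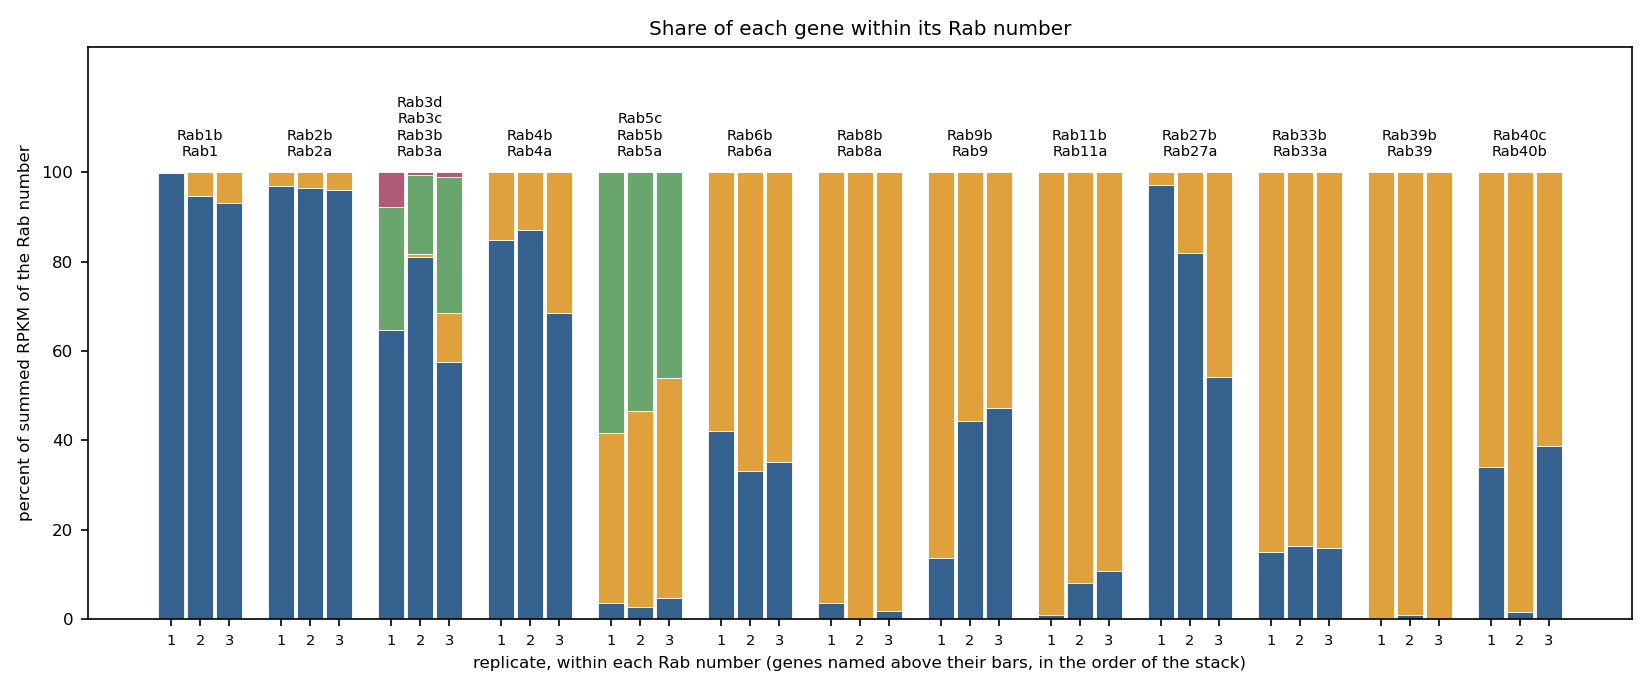
Share of each gene in the summed RPKM of its Rab number (percent), 1 stacked bar per library for the 13 numbers with more than 1 gene, with gene names above each trio in the order of the stack. Rab2 and Rab33 bars are alike in the 3 libraries, while Rab3, Rab9 and Rab27 bars differ.

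Differences between related genes were taken within each library on the scale log2(RPKM + 0.1), for all 20 pairs of the same number and 4 pairs of near relatives. With 3 libraries a two-sided exact permutation test by sign flips gives no p below 0.25, so no pair could pass a threshold of 0.05, and the sign in each library and the SD are given instead. In 19 of the 24 pairs the same gene was higher in all 3 libraries, and in 17 of these the mean exceeded its SD. Among the 13 pairs whose genes both had at least 10 counts in every library, 11 had a single sign.

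Rab2a exceeded Rab2b by 4.79 ± 0.17 (27.6-fold). Rab33a was below Rab33b by 5.05-fold (-2.34 ± 0.04). These were the pairs with the smallest SD. Rab33a had only 9, 38 and 12 counts, so the small SD of its pair does not show a closely held ratio. Rab5a was below Rab5b by 11.3-fold (-3.50 ± 0.34) and below Rab5c by 13.6-fold (-3.76 ± 0.49). Rab6b exceeded Rab6a 1.72-fold, with differences, coded as Rab6a minus Rab6b, of -0.46, -1.01 and -0.89 in the 3 libraries.

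Rab3a exceeded Rab3c by 1.24, 2.20 and 0.92 in the 3 libraries, a mean of 1.45 ± 0.67 (2.74-fold) per length, but without length the difference was -0.98. The gap between the scales follows from the annotated exon lengths given above. Rab4a exceeded Rab4b by 2.10 ± 0.87 (4.30-fold), and Rab11a was below Rab11b by 20.8-fold (-4.38 ± 1.95). The difference of Rab27a from Rab27b, 4.79, 2.15 and 0.23, had one sign but a mean (2.39 ± 2.29) close to its SD, and that of Rab9 from Rab9b (-1.04 ± 1.40) was within it.

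Pairs without a common sign were Rab5b and Rab5c (-0.27 ± 0.35, exact sign-flip permutation p = 0.5), Rab22a and Rab31 (0.31 ± 1.03, p = 0.75), Rab3b and Rab3d (-1.10 ± 5.11, p = 1.0), Rab26 and Rab37, and Rab32 and Rab38, the last with 10 counts or fewer in each library. For Rab3b and Rab3d the differences ran from -6.74 in replicate 1 to 3.24 in replicate 3, so the order of these 2 genes depended on the library.

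**Figure D3:**
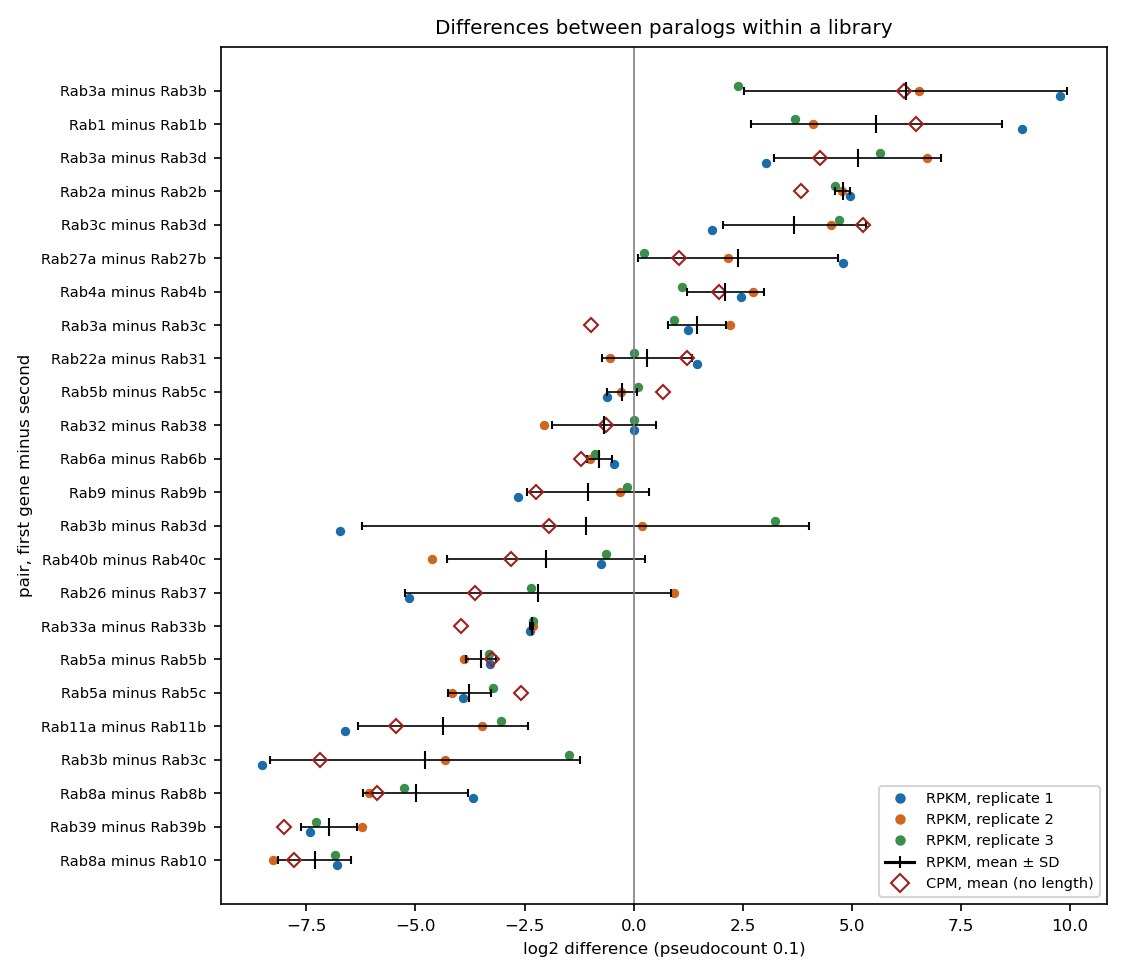
Log2 difference between related Rab genes within each library (points), with mean ± SD over 3 libraries per length and, as open diamonds, the mean difference of CPM without length. Rab3a minus Rab3c and Rab5b minus Rab5c lie on opposite sides of 0 by the 2 scales.

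The test against counting error called nearly every gene, Rab or not. By a Poisson chi-square test with Benjamini-Hochberg adjustment over all genes, 43 of the 44 Rab genes with at least 10 counts in at least 2 libraries were called, against 96.5% of all 11168 genes tested, so these calls say nothing particular about Rab genes. The test treats reads as independent molecules. The exception was Rab43, with 100, 116 and 102 counts and an adjusted p of 0.997. A model that measures each gene against the spread of genes of like abundance, edgeR's quasi-likelihood dispersion, called 0 of 44 Rab genes and 0 of 11168 genes (background 0%). At an unadjusted p under 0.05 it named 2 of the 44 Rab genes, Rab3b and Rab9b, against 477 of all 11168 genes. These are like shares, so this too says nothing particular about Rab genes. The common biological coefficient of variation was 0.832, and with 3 libraries and a spread this wide, 0 calls do not show that Rab genes varied no more than other genes.

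Among the 40 Rab genes with at least 10 counts in every library, the highest CPM was a median of 2.52 times the lowest, and over all 8992 such genes 2.54 times. The ratio ran from 1.01 for Rab43 to 36.2 for Rab24. Among the genes of highest level, Rab6b (1.20), Rab11b (1.22), Rab3a (1.44), Rab2a (1.5), Rab6a (1.62), Rab1 (1.85) and Rab7 (2.18) stood below the median. Ratios above 5 were those of Rab24, Rab11a (10.5), Rab3d (9.77), Rab27b (8.72), Rab13 (8.22), Rab40c (7.29), Rab9b (5.48), Rab8b (5.34) and Rab27a (5.24). Rab9b was the most counted of these, with 2064, 439 and 790 counts. They did not move together: Rab9b and Rab3d were highest in replicate 1, Rab24, Rab27a, Rab27b and Rab40c in replicate 2, and Rab11a, Rab8b and Rab13 in replicate 3.

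**Figure D4:**
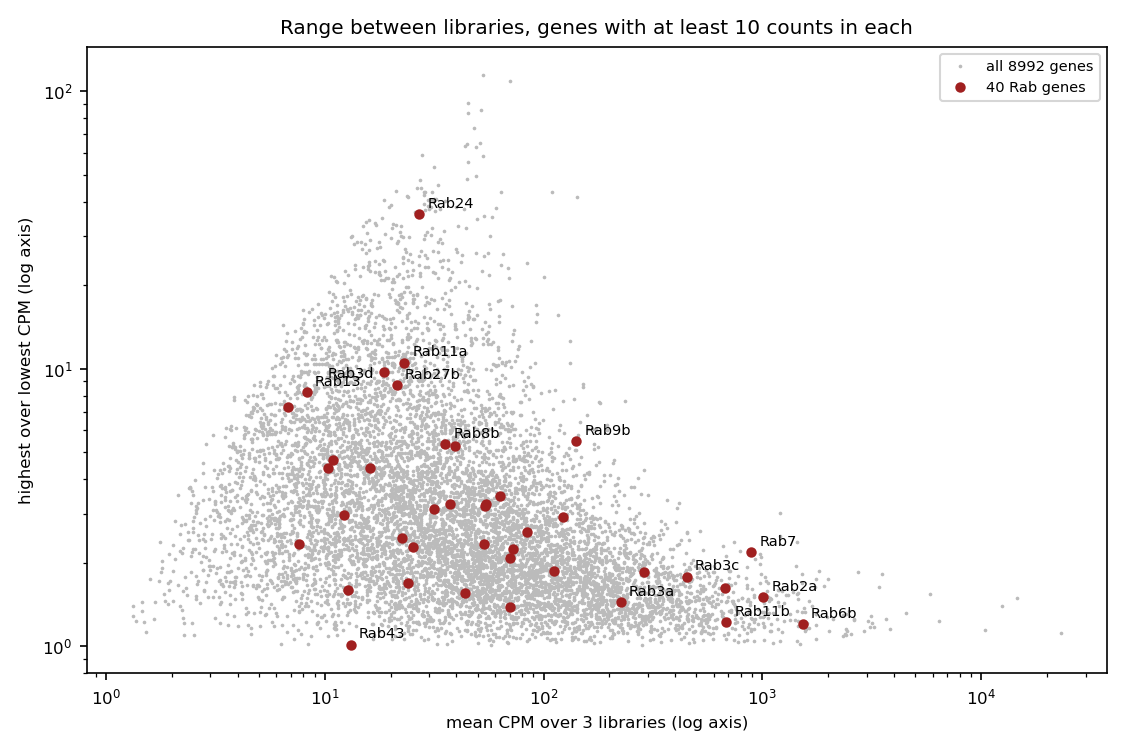
Highest over lowest CPM of the 3 libraries against mean CPM (both log axes), for the 8992 genes (grey) and 40 Rab genes (red) with at least 10 counts in every library. Rab genes lie within the cloud of all genes, with Rab24 at 36.2 and Rab43 at 1.01 as their extremes.

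The partners of the Rab cycle were present as well. Of 16 genes for GDP dissociation inhibitors, prenylation and related membrane factors, 10 reached that minimum of 10 counts in each library and none lacked counts. Yipf3, a Golgi membrane protein, had a mean of 26.7 ± 21.6 RPKM, and Gdi2, a widely expressed GDP dissociation inhibitor, had 16.7 ± 4.49. The transferase subunit gene Rabggtb had 15.5 ± 8.45 and the escort protein gene Chml 14.8 ± 6.65, while Yif1a and Yif1b were the lowest, with means of 0.0401 and 0.126 RPKM.

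Among 36 exchange factor genes 27 passed the minimum of 10 counts in every library, but none came near the levels of the leading Rab genes. Dennd5a, an exchange factor for Rab39 proteins and a binding partner of Rab6, was the highest at 27.9 ± 6.67 RPKM. Sbf2 (17.0 ± 6.92), Rab3gap2 (14.3 ± 4.23), a subunit of the complex that activates Rab18, Smcr8 (13.8 ± 4.07) and Mon1b (13.6 ± 3.30), a subunit of the exchange factor for Rab7, followed. Dennd2c had no count and Dennd1c a mean of 0.00837 RPKM. Of 38 genes for GTPase-activating proteins 28 passed, with Tbc1d30 (29.8 ± 12), Tbc1d9b (24.5 ± 6.78), Tbc1d9 (18.0 ± 4.29), Usp6nl (15.8 ± 3.57), known for Rab5, and Rabgap1l (13.4 ± 1.28) at the top. Tbc1d2 had no count, and Tbc1d10c had a mean of 0.0104 RPKM.

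Effectors reached higher levels. Of 44 genes 34 passed the same minimum and 5 had no count, namely Sytl1, Sytl3, Sytl4, Rilp and Mical1. Rph3a, the gene of rabphilin, which binds Rab3 on synaptic vesicles, had 403, 317 and 416 RPKM (379 ± 53.6), above Rab3a and Rab3c in every library. Myo5a, the motor myosin Va that Rab proteins couple to vesicles, had 137 ± 8.78 RPKM. Rims2, a Rab3-binding active zone scaffold (37.8 ± 14.1), Appl2, a Rab5 effector (28.9 ± 11.4), and Uso1, the Golgi tether p115 (26.6 ± 4.31), followed. Of the enzymes that modify Rab proteins, Tbk1 had 12.1 ± 9.05, the phosphatase gene Ppm1h 6.40 ± 2.26 and Lrrk2 3.78 ± 0.353 RPKM, while Lrrk1 had 26, 3 and 2 counts.

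Other small GTPases had medians of a like order. The median of the mean log2(RPKM + 0.1) was 2.06 for Rab genes, 2.29 for 26 Arf family genes and 1.09 for 33 Ras family genes. At least 10 counts in every library were found for 21 and 18 genes of the Arf and Ras families. Their highest genes, Arf1 (158 ± 42.6 RPKM) and Rit2 (115 ± 33.1), had lower mean levels than Rab2a, Rab7 and Rab6b. For the partners of the Rab cycle the medians were 2.43 for effectors, 2.41 for GDP dissociation inhibitor and prenylation genes, 1.59 for GTPase-activating proteins and 1.25 for exchange factors. The 7 Rab-like genes had a median of 0.04, and Rabl6 (14.7 ± 9.26 RPKM) was their highest, with no count for Rasef and Cracr2a. These medians are descriptions of lists, with no test between them.

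**Figure D5:**
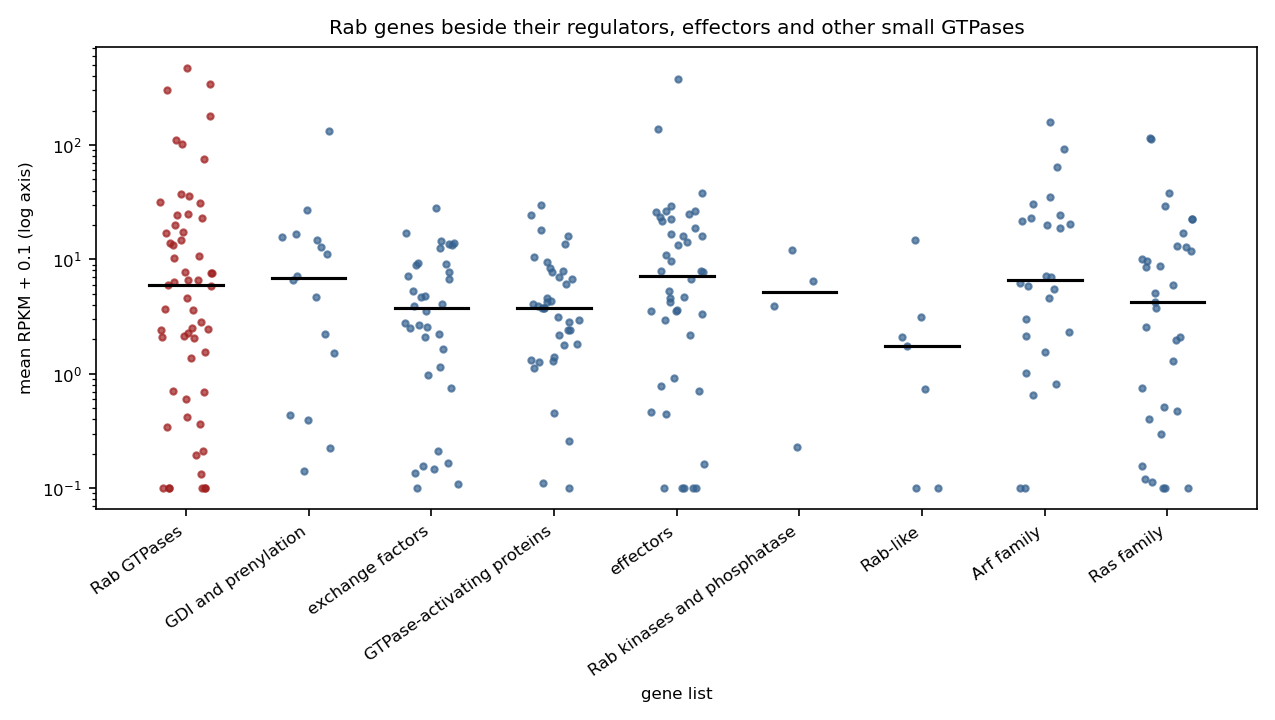
Mean RPKM + 0.1 (log axis) of each gene in the Rab family (red) and in 8 related lists (blue), with a bar at the median of each list. The 3 highest Rab genes (471, 341 and 304 RPKM) stand above every gene of the other lists except Rph3a (379 RPKM).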

How the data were processed

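For each immunopurified library the authors deposited 1 table of raw read counts by gene symbol. Reads were handled with STAR 2.0.0e and HTSeq on mm10, per the submitters' processing notes. No source used here gives the annotation, strand setting or library kit. HTSeq's summary rows were left out of library sizes; reads on no feature were 50.2%, 44.1% and 44.7% of those counted.

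From the counts, CPM was computed with TMM library sizes (edgeR 4.0.16, R 4.3.3) and RPKM with the union of GENCODE M21 exons, matched by symbol for 23848 genes and all 58 Rab genes (Rab1 through its synonym). Log values are log2(RPKM + 0.1), which understates differences of low genes. Values are mean ± SD over 3 libraries.

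Spread between libraries was tested on genes with at least 10 counts in at least 2 libraries, by a Poisson chi-square test and by edgeR's quasi-likelihood dispersion, both with Benjamini-Hochberg adjustment. Related genes were compared by exact sign-flip permutation (numpy 2.4.6), and Spearman's correlation was computed with scipy 1.17.1. Alternatives were DESeq2 1.42.0 size factors, other lengths, filters and pseudocounts, and leaving out each library. Intervals between libraries and limits from counts of 0 do not cover amplification, as no molecular identifiers are given.

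The members, lists and compartments were chosen with earlier results of these data known. All Rab genes are accounted for. Of each other list, up to 5 genes of highest and 2 of lowest mean RPKM are named where the text treats the list; the other small GTPase families are shown by their highest gene, and genes without a count are added. A few items covered by this rule are left out of the text, while list counts and medians include every listed gene. Protein sequences were planned but not used here; coding ends and shared runs, chosen after the values were seen, are printed in their place.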

Additional observations from a re-analysis of the deposited data

How the results depend on the processing

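With DESeq2 size factors, no Rab level, pair or summary count moved beyond its spread. Of the 44 Rab genes tested for spread, 43 were called by the Poisson test and 0 by edgeR's quasi-likelihood dispersion, with or without robust estimation (2 at an unadjusted p under 0.05 in each). Over all 11168 genes tested, the Poisson test called 96.5% and the quasi-likelihood dispersion 0. At an unadjusted p under 0.05 the latter named 477 of these genes, and 461 with robust estimation. Without Rn45s and the 20 most abundant genes in the denominator, the Rab share was 0.807%. Keeping only pairs with at least 10 counts left 11 of 13 with one sign, a lower count since fewer pairs enter. Without length (CPM), Rab3a minus Rab3c turned to -0.98 and Rab5b minus Rab5c to 0.67; with the positions of the coding transcript whose 50-base window is in no other annotated gene, Rab5b minus Rab5c was 0.16. This last setting was added after seeing the data, in place of windows unique in the genome, which was not run. Rab2a minus Rab7 (0.52) was 0.24 with coding transcript length and 0.08 with those windows, with Rab7 higher in 2 of 3 libraries in both; this comparison too was added after seeing the data. Leaving out a library moved Rab3b minus Rab3d between -3.26 and 1.72 and Rab22a minus Rab31 between -0.27 and 0.73, both reversed without replicate 1. Apart from length itself, the cause of these changes was not tested. Without replicate 1, 2 or 3, the Poisson test called 38 of 43, 35 of 41 and 36 of 40 Rab genes tested. Over all genes tested in those settings it called 80.5%, 81.8% and 82.2%. Leaving out 1 library in turn gave 40 to 43 Rab genes detected and a Rab share of 0.665% to 0.741%. It also gave 19 to 22 Rab genes of at least 10 RPKM, 20 to 21 pairs with one sign and 12 to 13 numbers with one leader. Coding transcript length moved the level of 12 of 52 genes beyond its SD. Counts under about 10 in a library, as for Rab8a, Rab39 or Rab32, limit what can be said of those genes. No paired analysis was possible because the labels give a single group.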
